A study of Mus musculus with 15 samples.

Results

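Solute carrier (SLC) genes encode membrane proteins that move nutrients, ions, drugs and metabolites across the plasma membrane and the membranes of organelles. In the liver table analysed here, 60 of the 2545 genes had a symbol that starts with Slc and a digit (58 genes) or with Slco (2 genes), and these 60 genes from 31 families are the subject. They were taken by name alone. Liver RNA had been sequenced from 15 ovariectomized female C57BL/6 mice, 3 in each of 5 groups. The Veh group received the vehicle, a mixture of DMSO, ethanol and saline. The E2 group received estradiol from slow-release pellets, at a stated dose of 5 μg/kg/day. The pellet content and release time that the paper gives would come to a higher dose. The CE group received conjugated estrogens at 2.5 mg/kg/day from an osmotic minipump, and the BZA group bazedoxifene at 3 mg/kg/day. The CE+BZA group received both drugs. All mice, the Veh mice included, were put on a high-fat diet with 45% of calories from fat at 8 weeks of age, were ovariectomized at 10 weeks and were treated for 6 weeks. Bazedoxifene is a selective estrogen receptor modulator, and its pairing with conjugated estrogens is a menopausal therapy. The 3 livers sequenced per group came from 8 mice per group, and no liver from a mouse with ovaries is among the 15.

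Values are log2 and set against the median that each gene had over the 15 mice, so 0 is that median and a difference of 1 is a 2-fold difference. Levels could therefore be compared between mice and not between genes. The table is a selection: all 2545 genes, and so all 60 SLC genes, had a mean difference from Veh above 1 in size in at least 1 treatment. The table holds no read totals, and the spacing of its low values put 1 read at 0.839 to 1.14 times the floor, the lowest value the table gives, depending on the mouse. In 14 of the 60 genes 2 or more mice shared the lowest value of the gene, which was read as this floor (41.1% of all genes). The SD between mice of a group, pooled over the 5 groups, was 0.33 to 1.77 for the SLC genes with a median of 0.77, against a median of 0.79 for all genes. As whole liver was sequenced, fewer cells of a type and less RNA per cell cannot be told apart.

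The liver handles many solutes through these carriers. Organic anion and bile acid carriers of the SLCO, SLC10 and SLC22 families take up bile acids, hormones and drugs from the blood, citrate and glucose carriers link the hepatocyte to circulating fuel, and mitochondrial carriers of the SLC25 family supply the urea cycle and oxidative metabolism. Several rodent hepatic transporters are known to respond to sex steroids. The comparisons ask how each treatment differed from Veh after ovariectomy on the high-fat diet, and whether CE+BZA differed from its components and from E2.

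No SLC gene passed a fold change above 2 with an FDR under 0.05 by limma in any of these comparisons (0 of 60). Over all genes these thresholds were passed against Veh by 0.196% (E2), 0.157% (CE), 0% (BZA) and 0.118% (CE+BZA). The shares were 0.0393% for CE+BZA against CE, 0% against BZA and 0.157% against E2. For the test of any difference among the 5 groups, 0.472% of all genes passed, and for additivity of CE and BZA 0.118%. Differences over 2-fold whose unadjusted p was under 0.05 by limma are therefore described, and are called nominal. Every gene of the table had a mean difference from Veh above 1 in size in at least 1 treatment. Nominal counts, p-values and FDR against Veh may be affected by this selection. Shares of all genes in these comparisons are shares of the 2545 selected genes. Each of the 4 comparisons with Veh uses the same 3 Veh mice.

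E2 had nominal differences in 7 of 60 SLC genes, beside 15.1% of all genes, with 2 higher and 5 lower than in Veh (6.52 and 8.61% of all genes). CE had 11 (8 higher and 3 lower), beside 18.6% of all genes (10.1 and 8.45%). BZA had 13 (11 higher and 2 lower), beside 16.4% (8.92 and 7.47%). CE+BZA had 21 (17 higher and 4 lower), beside 21.1% (11.6 and 9.55%). With the 2-fold threshold alone and no test, E2 had 12 SLC genes higher and 8 lower (14.6 and 19.6% of all genes) and CE 14 and 5 (22.6 and 17%). BZA then had 23 and 4 (22.3 and 18%), and CE+BZA 24 and 9 (24.6 and 19.1%). The share of SLC genes with nominal differences was 11.7% with E2, 18.3% with CE, 21.7% with BZA and 35% with CE+BZA. The median log2 fold change of the 60 genes was 0.34 with E2, 0.45 with CE, 0.83 with BZA and 0.64 with CE+BZA, against 0, 0.06, 0.11 and 0.08 for all genes. The group mean was higher than in Veh under all 4 treatments in 32 SLC genes (30.5% of all genes) and lower in 11 (28.9% of all genes), and 17 were mixed.

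**Figure D1:**
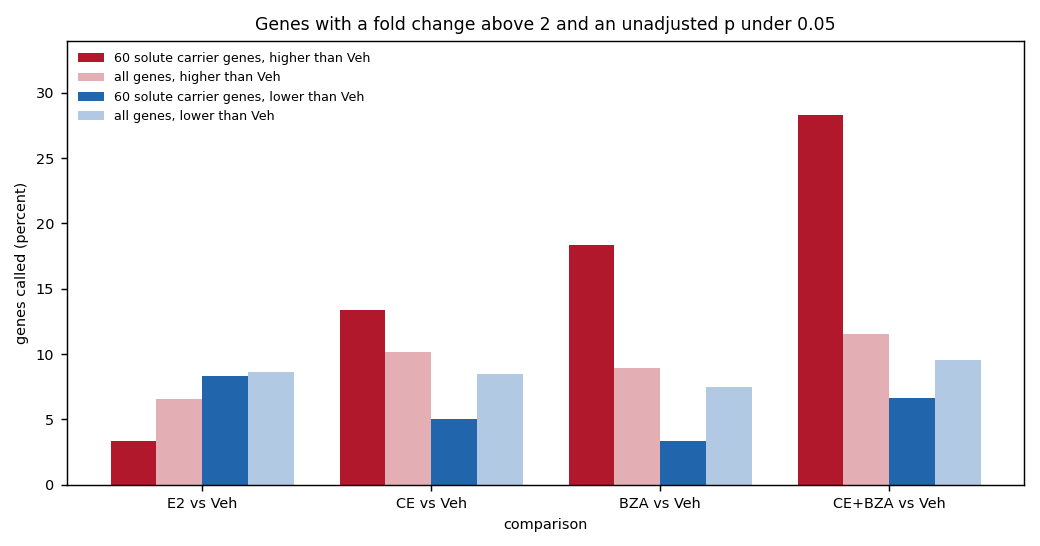
Bars give the percent of genes that differed nominally from Veh (over 2-fold, unadjusted p under 0.05 by limma), for the 60 SLC genes (dark) and all 2545 genes (pale), separately for genes higher and lower than in Veh. The dark bar of higher genes reaches 28.3% in CE+BZA against 11.6% of all genes.

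1 Veh mouse stood apart in these genes. Veh mouse 7 held the lowest value of 21 of the 46 SLC genes that had a single lowest mouse (45.7%), and of 18.4% of all genes that had one. The next highest count among the SLC genes was 4, in BZA mouse 4. The hepatocyte markers in the table were 3 of the 12 listed, Ass1, Pck1 and Tat, and their mean was also lowest in Veh mouse 7, at −1.41 against −0.64 and −0.27 in the other Veh mice. It was −0.31 to −0.02 in E2, −0.33 to 0.24 in CE, 0.05 to 0.88 in BZA and 0.47 to 1.14 in CE+BZA. Ass1 (−2.37) and Pck1 (−1.73) were lowest in Veh mouse 7, but Tat was at −0.14 there and lowest in Veh mouse 1 (−0.60). Like all genes of the table, these 3 had a mean difference from Veh above 1 in size in at least 1 treatment. Their mean is therefore no measure of the number of hepatocytes. Since the values are relative to each gene, they cannot show how strongly a marker was expressed. Without Veh mouse 7, the nominal differences went to 4 with E2 (0 higher and 4 lower), 9 with CE (6 and 3), 6 with BZA (3 and 3) and 10 with CE+BZA (4 and 6). Beside these counts of 60, 11.9% (E2), 14.8% (CE), 11.2% (BZA) and 14.9% (CE+BZA) of all genes were nominal. The higher and lower shares of all genes were 5.58 and 6.29% (E2), 8.29 and 6.48% (CE), 5.85 and 5.30% (BZA), and 7.90 and 7.03% (CE+BZA). The median log2 fold change of the 60 genes went to 0.15, 0.27, 0.60 and 0.42 in the same order. Among nominal SLC genes the higher ones then no longer outnumbered the lower ones in BZA and CE+BZA. With the 2-fold threshold alone and no test they still did, with 18 higher and 5 lower in BZA and 14 and 10 in CE+BZA, and the medians stayed above those of all genes without this mouse, 0.12 with BZA and 0.11 with CE+BZA. For the 2-fold threshold alone, the shares of all genes without this mouse are not given. The counts at this threshold can therefore not be read as particular to the SLC genes. With all 15 mice, higher genes also outnumbered lower ones among all genes at this threshold (BZA: 22.3 against 18%, CE+BZA: 24.6 against 19.1%).

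**Figure D2:**
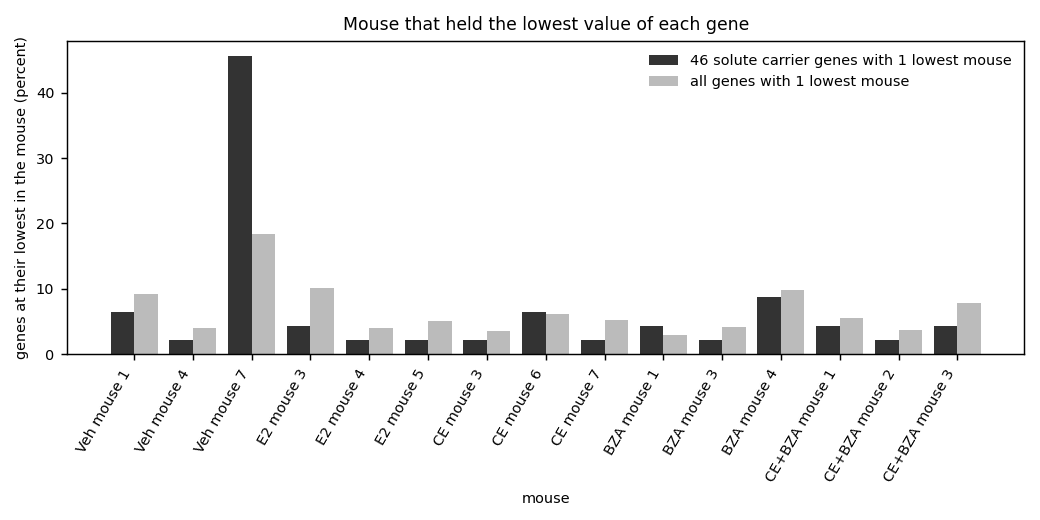
For each of the 15 mice, bars give the percent of genes whose lowest value was in that mouse, for the 46 SLC genes with 1 lowest mouse (dark) and for all genes with 1 lowest mouse (grey). Veh mouse 7 stands at 45.7% of the SLC genes and 18.4% of all genes.

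**Figure D3:**
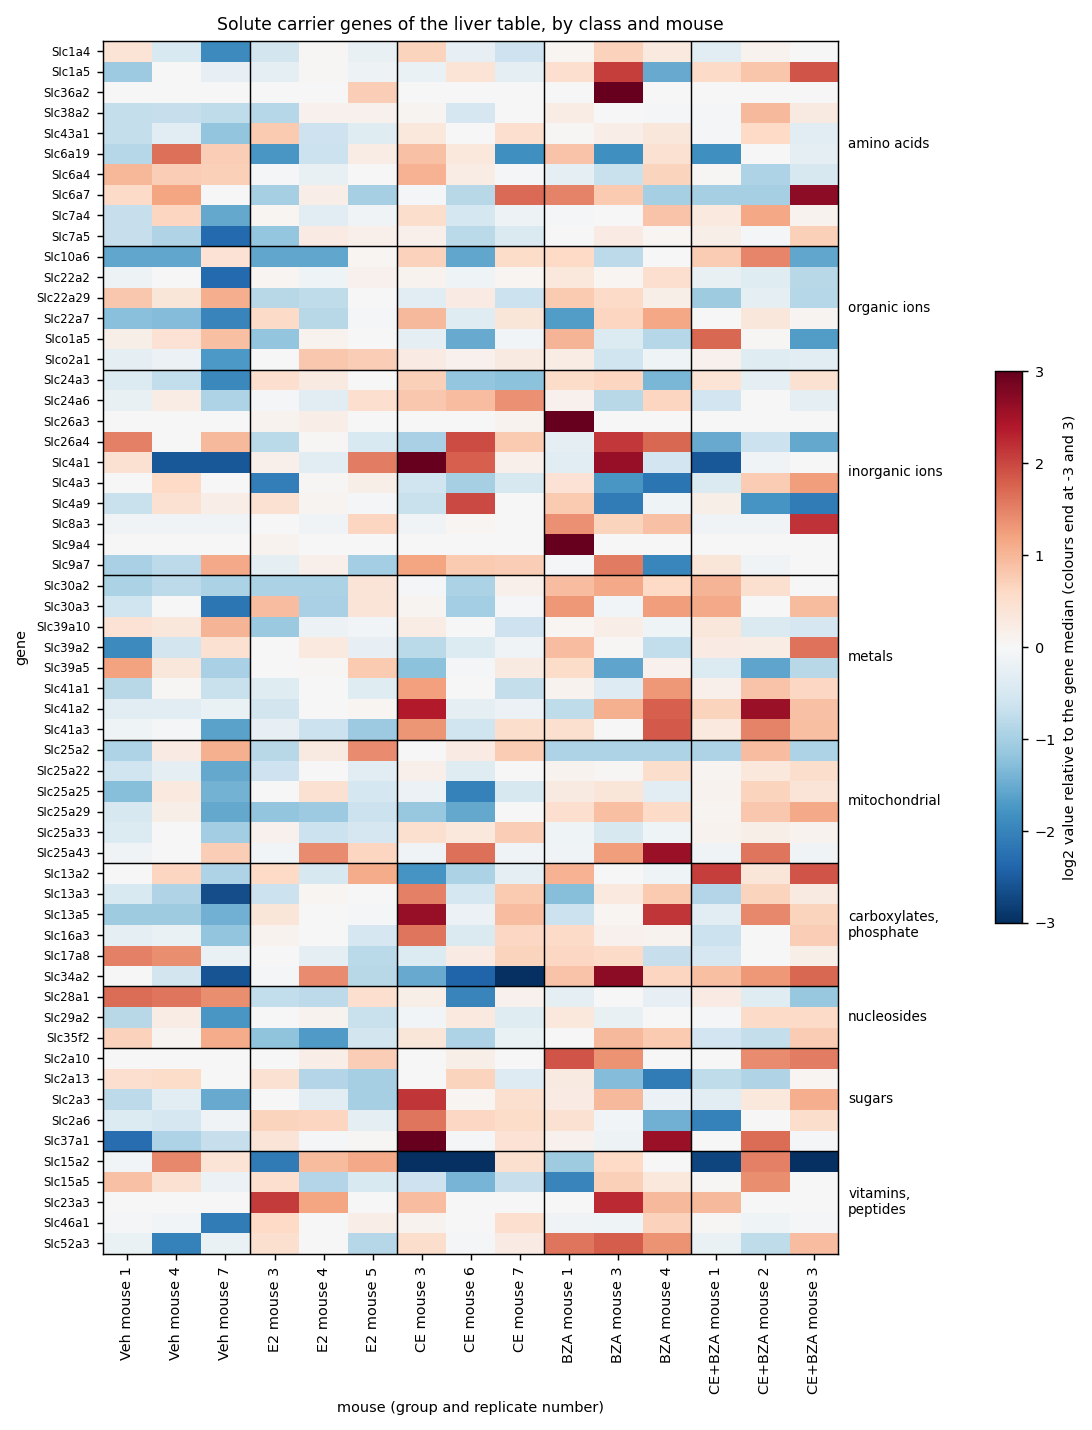
Colour gives the log2 value of 59 of the 60 SLC genes (rows, grouped by class of substrate) in each of the 15 mice (columns), relative to the median of the gene, with red above and blue below it and colours ending at −3 and 3. The column of Veh mouse 7 holds many blue cells, and Slc26a3 and Slc9a4 are dark red only in BZA mouse 1 and Slc36a2 only in BZA mouse 3.

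Among the carriers of phosphate, carboxylates and sulfate (6 genes), the gene with the smallest p of all 60 was Slc34a2, a sodium-dependent phosphate cotransporter of epithelial cells (chr5:53038081-53071664 on GRCm38). The Veh mice had log2 values of 0.00, −0.55 and −2.58. The CE mice were lower at −1.51, −2.41 and −4.79, and the E2 mice had −0.04, 1.42 and −0.83. With BZA the values were 0.85, 2.68 and 0.65, and with CE+BZA 0.89, 1.30 and 1.72. All 6 mice that received BZA, alone or with CE, were above all 3 Veh mice and all 3 CE mice, and the CE and Veh mice overlapped. The group means, with SD and n = 3 each, were −1.05 ± 1.36 (Veh), 0.18 ± 1.14 (E2), −2.91 ± 1.69 (CE), 1.39 ± 1.12 (BZA) and 1.30 ± 0.41 (CE+BZA). CE+BZA was 18.5-fold higher than CE, a log2 fold change of 4.21 (SE 0.86, unadjusted p = 0.000151, FDR 0.0769 by limma). The test of any difference among the groups gave an FDR of 0.0624 by limma. The size of the CE+BZA difference from CE stayed between 3.27 and 4.91 over 23 alternative analyses, and its FDR lay between 0.0190 and 0.451 by limma. It was under 0.05 with quantile normalization and without the genes with 2 or more mice at the floor.

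Against Veh, Slc34a2 had log2 fold changes of 2.44 in BZA and 2.35 in CE+BZA, each with an SE of 0.86 (FDR 0.273 and 0.207 by limma). Without Veh mouse 7 these were 1.67 and 1.58 and were no longer nominal, and without BZA mouse 3 the BZA value was 1.80 and was not nominal either. The log2 fold change of CE was −1.86 (FDR 0.263 by limma). It was −0.92 without CE mouse 7 and was no longer nominal without each of 9 mice. CE+BZA and BZA differed by −0.09 (SE 0.86, FDR 0.990 by limma), an error too large to show that they were alike.

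Slc13a2, a sodium-coupled carrier of citrate and succinate, also separated CE+BZA from CE. Its values were −1.77, −0.95 and −0.27 in CE and 2.08, 0.36 and 1.89 in CE+BZA, with Veh at −0.01, 0.65 and −0.93. The CE+BZA mice all lay above the CE mice, while the Veh mice overlapped with both. The difference was 5.43-fold, or 2.44 on the log2 scale (SE 0.64, FDR 0.150 by limma), and was nominal in all 24 alternative analyses. The additivity contrast, which sets the CE+BZA difference from Veh against the sum of the CE and BZA differences, was 2.04 (SE 0.90, FDR 0.388 by limma).

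Slc13a5, the sodium-coupled citrate transporter of the hepatocyte plasma membrane, was 1 of 2 SLC genes in which all 12 treated mice lay above all 3 Veh mice (1.26% of all genes). The Veh mice had −1.07, −1.07 and −1.43. The E2 mice had 0.37, 0.00 and −0.07, the CE mice 2.62, −0.17 and 0.92, the BZA mice −0.65, 0.07 and 2.15, and the CE+BZA mice −0.31, 1.44 and 0.68. The separation came with a wide spread among treated mice, from −0.65 to 2.62. The log2 fold change was 2.31 in CE (SE 0.74, FDR 0.197 by limma), 1.71 in BZA and 1.79 in CE+BZA. In E2 it was 1.29 and not nominal (FDR 0.376 by limma). Without CE mouse 3 the CE value was 1.56, without BZA mouse 4 the BZA value was 0.90, and without CE+BZA mouse 2 the CE+BZA value was 1.37, none of them nominal. The related dicarboxylate carrier Slc13a3 was nominally higher in CE only, with a log2 fold change of 1.94, or 1.27 and not nominal without Veh mouse 7. Without that mouse the values of Slc13a5 were 1.59 in BZA and 1.67 in CE+BZA, and that of Slc13a2 in CE+BZA went from 1.54 to 1.12, none of them nominal. Slc17a8, a vesicular glutamate transporter, was nominally lower in E2 by −1.28, and without Veh mouse 7 it was nominally lower under all 4 treatments, by −1.83 (E2), −1.29 (CE), −1.29 (BZA) and −1.57 (CE+BZA), and Slc16a3, a lactate exporter, had no nominal difference.

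**Figure D4:**
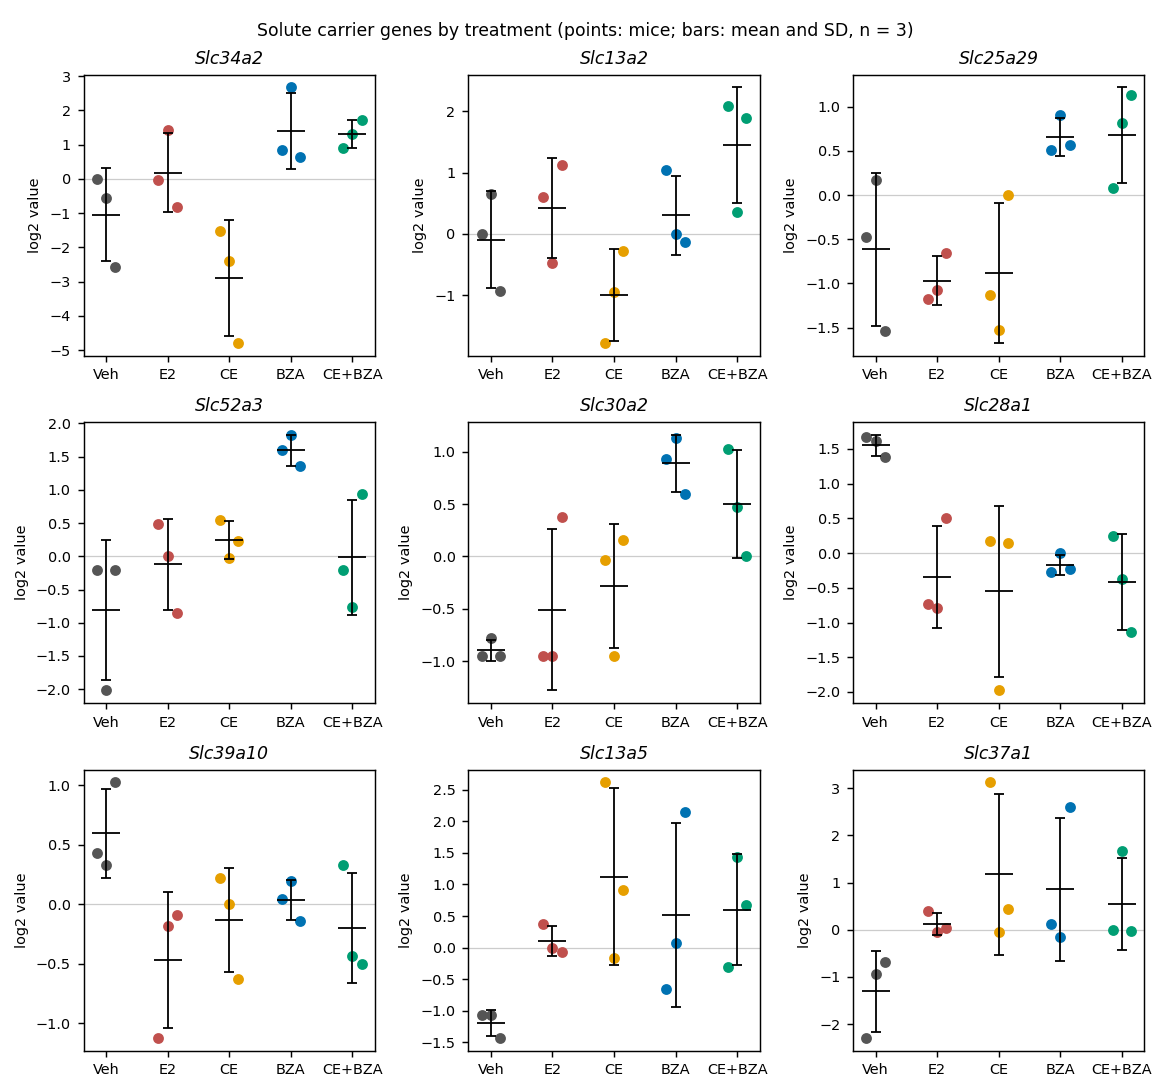
Log2 values, relative to the median of the gene, of 9 SLC genes in the 5 groups: points are mice and bars the mean and SD (n = 3). In Slc34a2 the CE mice lie lowest (mean −2.91) and the BZA and CE+BZA mice highest (means 1.39 and 1.30), while in Slc28a1 the 3 Veh mice lie above all 12 treated mice.

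The carriers of nucleosides and nucleotide sugars (3 genes) held the 1 gene that was nominally lower under every treatment. Slc28a1, a sodium-coupled concentrative transporter of pyrimidine nucleosides (chr7:81114799-81170416 on GRCm38, plus strand), had 1.67, 1.61 and 1.39 in the Veh mice. The highest value of a treated mouse was 0.51 with E2, 0.18 with CE, 0.00 with BZA and 0.25 with CE+BZA. All 12 treated mice thus lay below all 3 Veh mice, which was so in 1 other SLC gene, Slc39a10, and in 2.32% of all genes. The log2 fold changes were −1.89 (E2), −2.11 (CE), −1.72 (BZA) and −1.97 (CE+BZA), with an SE of 0.60 each (FDR 0.211, 0.159, 0.260 and 0.150 by limma), that is 3.72-, 4.31-, 3.30- and 3.92-fold lower. All 4 differences remained nominal without each of the 15 mice in turn. Slc28a1 and Slc22a7, described below, were the 2 SLC genes with nominal differences under all 4 treatments (3.33%, beside 1.45% of all genes), and 27 of the 60 genes had none (45%, beside 50.3% of all genes). An annotated gene on the other strand, Ndufs6b, overlaps Slc28a1, and the strand setting of the counting is not stated, so reads of the pair may not be separated. The same holds for other carriers that overlap a gene on the other strand, among them Slc34a2, Slc13a2, Slc13a3, Slc13a5, Slc15a2, Slc25a25, Slc25a33, Slc30a3, Slc37a1, Slc39a5, Slc41a2, Slc6a4, Slc7a5, Slc9a4, Slco1a5 and Slco2a1. Some carriers overlap a gene on their own strand, among them Slc39a2 (Mettl17), Slc39a10 (Gm28151 and Gm37393) and Slc2a3 (Gm4482). A strand setting would not separate the reads of such pairs.

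Slc35f2, a member of the nucleotide sugar transporter superfamily, was lower in E2. The E2 mice had −1.20, −1.70 and −0.55 and the Veh mice 0.69, 0.09 and 1.11. The 3 E2 mice lay below the 3 Veh mice, and the log2 difference was −1.78 (SE 0.55, FDR 0.202 by limma). It remained nominal without each mouse in turn. The other treatments had −0.89 (CE), −0.05 (BZA) and −0.81 (CE+BZA), none nominal. The equilibrative nucleoside transporter Slc29a2 was nominally higher in CE+BZA, by 1.16, or by 0.68 and not nominal without Veh mouse 7.

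Estrogen receptors bind DNA at paired AGGTCA-like sites, so the start regions of the SLC genes were searched for them. RefSeq windows of 300 bases around the start (250 before and 50 after it, GRCm38.p6) were matched for 46 of the 60 genes. The full palindrome, GGTCA and TGACC 3 bases apart, was in 0 of the 46 and in 0.0740% of 27025 genes. The single site AGGTCA, on either strand, was in 3 of the 46 (6.52%: Slc24a3, Slc26a3 and Slc35f2), against 18.1% of all genes and 19.0% of the genes of the table. A match of these letters is not evidence of binding, and no match says only that the letters are not in the window. The 250 bases before the start are shown for the gene that was nominally lower in all 4 treated groups (chr7:81114549-81114798) and for the gene that was nominally lower in E2 and holds a site (chr9:53771285-53771534), both on the plus strand and with AGGTCA in capitals. In Slc35f2 the site begins 132 bases before the start.
Slc28a1: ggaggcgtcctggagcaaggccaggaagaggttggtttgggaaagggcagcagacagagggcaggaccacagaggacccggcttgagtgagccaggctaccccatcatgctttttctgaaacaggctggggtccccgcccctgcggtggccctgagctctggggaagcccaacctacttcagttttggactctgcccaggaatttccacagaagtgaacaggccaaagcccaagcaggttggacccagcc
Slc35f2: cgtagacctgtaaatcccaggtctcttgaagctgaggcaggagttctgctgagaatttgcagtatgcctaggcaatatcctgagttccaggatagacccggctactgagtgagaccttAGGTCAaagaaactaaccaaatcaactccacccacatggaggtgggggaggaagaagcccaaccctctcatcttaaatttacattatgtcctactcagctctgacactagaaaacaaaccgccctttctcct

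The bile acid and organic ion class (6 genes) held carriers of opposite direction. Slc22a7, an organic anion transporter of the hepatocyte that carries cyclic nucleotides and drugs (chr17:46432183-46438457 on GRCm38), had −1.26, −1.31 and −1.98 in Veh. The E2 mice had 0.56, −0.82 and −0.07, the CE mice 0.98, −0.35 and 0.36, and the CE+BZA mice 0.00, 0.35 and 0.08. The BZA mice had −1.67, 0.64 and 1.16, so that 11 of the 12 treated mice lay above the Veh mice and BZA mouse 1 lay among them. The log2 fold changes were 1.41 (E2), 1.85 (CE), 1.56 (BZA) and 1.66 (CE+BZA), with an SE of 0.65 each (FDR 0.322, 0.220, 0.283 and 0.213 by limma). Without Veh mouse 7 they were 1.17, 1.61, 1.32 and 1.43, and only the CE value was still nominal. The CE value was 1.52 and not nominal without CE mouse 3. The E2 value was not nominal when any 1 of 10 mice was left out, some of them of other treatments. The BZA value was 1.26 without BZA mouse 3 and 0.997 without BZA mouse 4, neither nominal. The CE+BZA value was 1.56 and not nominal without CE+BZA mouse 2.

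Slc22a29, another organic anion carrier of the family, was lower in E2 and CE+BZA. The values were 0.80, 0.37 and 1.09 in Veh, −0.83, −0.77 and 0.00 in E2, and −1.08, −0.28 and −0.86 in CE+BZA. The BZA mice had 0.78, 0.57 and 0.16 and overlapped with Veh. The log2 fold change was −1.29 in E2 and −1.49 in CE+BZA (SE 0.47 each, FDR 0.252 and 0.167 by limma), both nominal without each mouse in turn, and −0.25 in BZA. CE+BZA was lower than BZA by −1.24 (FDR 0.540 by limma), which was −1.07 and not nominal without CE+BZA mouse 1. The values of Slc22a29 are uncertain, as it lies in a cluster of close relatives that may share its reads.

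Slco2a1, the prostaglandin transporter, was higher in E2 at 0.00, 0.81 and 0.75 than in Veh at −0.28, −0.17 and −1.72. The E2 mice lay above the Veh mice, by 1.24 on the log2 scale (SE 0.50, FDR 0.290 by limma), but by 0.74 without Veh mouse 7 and then not nominal, as without E2 mouse 4 (1.10) or E2 mouse 5 (1.13). Slco1a5, a bile acid and organic anion uptake carrier, had −1.18, 0.09 and 0.00 in E2 and −0.26, −1.52 and −0.07 in CE, all below Veh at 0.18, 0.43 and 0.89. Its log2 fold changes of −0.86 and −1.12 were not nominal (SE 0.75 each). The organic cation carrier Slc22a2 had its lowest value, −2.33, in Veh mouse 7 and no nominal difference, with log2 fold changes from 0.35 in CE+BZA to 1.12 in BZA. In Slc10a6, a carrier of sulfated steroids, 6 of the 15 mice were at the floor and no difference was nominal. Of a list of 40 genes of bile acid and organic anion handling, 7 were in the table. Slco1a1, which is on this list and which the paper followed up by qPCR, was not in it and could not be examined here. The 2 that are not SLC genes had no nominal difference from Veh. These are Abcc4, an exporter of bile acids and cyclic nucleotides, with means of 1.15 ± 1.24 in Veh and −0.22 ± 0.35 in CE+BZA, and Cyp7a1, the rate-limiting enzyme of bile acid synthesis, with 0.33 ± 0.91 and 0.06 ± 0.06 (SD, n = 3).

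Of the 8 metal carriers, 5 were nominally higher in CE+BZA and 3 in BZA (11.6 and 8.92% of all genes). None was nominally higher in E2 or CE (6.52 and 10.1% of all genes). Without Veh mouse 7 the higher ones were 2 in CE+BZA (Slc30a2 and Slc39a2) and 1 in BZA (Slc30a2), beside 7.90 and 5.85% of all genes. Slc39a5 was then nominally lower in CE+BZA, by −1.71. The class median of the log2 fold changes was 0.18 with E2, 0.60 with CE, 0.90 with BZA and 1.39 with CE+BZA. The zinc transporter Slc30a2, which loads zinc into vesicles, had −0.95, −0.78 and −0.95 in Veh, where −0.95 is the floor. The BZA mice had 0.93, 1.14 and 0.60 and the CE+BZA mice 1.03, 0.47 and 0.00, all above the Veh mice. In E2 2 mice and in CE 1 mouse were at the floor as well. The log2 differences were 1.78 with BZA and 1.40 with CE+BZA (SE 0.51 each, FDR 0.182 and 0.205 by limma), and with 2 Veh mice at the floor these sizes may be understated. The BZA value remained nominal without each mouse in turn, and the CE+BZA value was 1.13 and not nominal without CE+BZA mouse 1.

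The synaptic-type zinc transporter Slc30a3 was also nominally higher in BZA and CE+BZA, by 1.75 and 1.61, although its mice overlapped with Veh. The magnesium carriers Slc41a3 and Slc41a2 were nominally higher in CE+BZA by 1.502 and 1.65, and Slc41a3 in BZA by 1.37. Without Veh mouse 7, Slc30a3 had 1.12 in BZA and 0.99 in CE+BZA, Slc41a3 had 0.86 and 0.995, and Slc41a2 had 1.70 in CE+BZA, none of them nominal. Slc39a2, a zinc importer, was higher in CE+BZA by 1.37. Slc39a10, a zinc importer of the plasma membrane, went the other way: all 12 treated mice, at −1.12 to 0.33, lay below the Veh mice at 0.43, 0.33 and 1.02, although Veh mouse 4 and CE+BZA mouse 1 were equal to 2 decimals. Its log2 fold change was nominal in E2 only, at −1.06 (SE 0.47, FDR 0.318 by limma). It was −0.73 without E2 mouse 3, −0.85 without Veh mouse 7 and not nominal in either. With all mice, Slc39a5 and Slc41a1 had no nominal difference from Veh.

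Among the carriers of vitamins and peptides (5 genes), Slc52a3, a riboflavin transporter of epithelia, was higher in BZA. The BZA mice had 1.60, 1.82 and 1.36 and were above all 12 other mice. The Veh mice had −0.20, −2.02 and −0.20, the E2 mice 0.49, 0.00 and −0.86, the CE mice 0.54, −0.03 and 0.24, and the CE+BZA mice −0.21, −0.77 and 0.93. BZA was 5.29-fold higher than Veh, a log2 fold change of 2.40 (SE 0.59, unadjusted p = 0.000824, FDR 0.182 by limma), which remained nominal in all 24 alternative analyses. CE+BZA was lower than BZA by −1.61 (FDR 0.540 by limma), or by −1.23 and not nominally without CE+BZA mouse 2. The additivity contrast was −2.67 (SE 0.83, FDR 0.257 by limma). Slc15a2, a carrier of small peptides, had values near −3 in CE mice 3 and 6 and CE+BZA mice 1 and 3 (−3.28 to −2.75) but of 0.47 and 1.51 in the third mouse of each group, and had the widest pooled SD of the 60 genes, 1.77. The CE group differed from Veh by −2.57 (FDR 0.261 by limma), or by −2.66 and not nominally without Veh mouse 7. The folate carrier Slc46a1, Slc15a5 and Slc23a3 had no nominal difference from Veh, and 9 mice were at the floor of Slc23a3.

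The sugar carriers (5 genes) had their nominal differences in CE, BZA and CE+BZA, with a class median of 0.44 with E2 and of 0.99 to 1.27 with the others. Slc37a1, a glucose-6-phosphate exchanger of the endoplasmic reticulum, was the other gene in which all 12 treated mice, at −0.16 to 3.12, lay above the Veh mice at −2.30, −0.93 and −0.69. The highest values were 3.12 in CE mouse 3, 2.60 in BZA mouse 4 and 1.67 in CE+BZA mouse 2, and the other 9 treated mice had values of at most 0.44. Log2 fold changes were 2.48 (CE), 2.16 (BZA) and 1.85 (CE+BZA), with an SE of 0.84 and FDR of 0.207, 0.283 and 0.232 by limma. Without CE mouse 3, BZA mouse 4 and CE+BZA mouse 2, respectively, these were 1.51, 1.29 and 1.29 and not nominal. Without Veh mouse 1 the BZA and CE+BZA values were 1.67 and 1.36 and not nominal. In total, the CE+BZA value was not nominal when any 1 of 7 mice was left out.

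Slc2a3, a high-affinity glucose transporter, was higher in CE at 2.15, 0.07 and 0.49 than in Veh at −0.79, −0.34 and −1.52. The CE mice lay above the Veh mice, by 1.78 on the log2 scale (SE 0.60, FDR 0.207 by limma), or by 1.16 and not nominal without CE mouse 3. The mean of the 7 leukocyte markers in the table, of 15 listed, was −0.99 to 0.02 in the Veh mice and 0.48 to 1.79 in the CE mice, with the highest in CE mouse 3, where S100a8 and S100a9, which mark neutrophils, were at 5.66 and 5.62. The high mean of that mouse came from S100a8 and S100a9. Its other markers were at 0.89 (Nkg7), 0.06 (Cd3g), 0.20 (Cd3e), 0.22 (Cd79b) and −0.12 (Ms4a1). In CE mouse 7 these were at 0.89, 0.41, 1.23, 1.40 and 0.56. The part of leukocyte RNA in the Slc2a3 value was not tested. Slc2a6, a glucose transporter family member of lysosomes, was lower in CE+BZA than in CE by −1.43 (FDR 0.330 by limma), or by −0.66 without CE+BZA mouse 1. This difference was not nominal when any 1 of 9 mice was left out. The inositol carrier Slc2a13 was lower in BZA by −1.40, and Slc2a10, with 8 mice at the floor, had no nominal difference from Veh.

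Of the 10 carriers of amino acids and neurotransmitters, 3 were nominally higher and 1 lower in CE+BZA (11.6 and 9.55% of all genes). In BZA 1 was higher (8.92% of all genes), and none differed nominally in E2 or CE (15.1 and 18.6% of all genes). Only Slc38a2 (higher) and Slc6a4 (lower), both in CE+BZA, were nominal without Veh mouse 7. The class median lay between 0.36 with E2 and 0.80 with BZA. Slc7a5, the large neutral amino acid transporter, had 0.00, 0.26 and 0.07 with BZA and 0.17, −0.03 and 0.71 with CE+BZA, all above Veh at −0.68, −0.89 and −2.33. The log2 fold changes were 1.41 and 1.58 (SE 0.55 each, FDR 0.283 and 0.196 by limma). Without Veh mouse 7 they were 0.89 and 1.07 and not nominal. The glutamine carriers Slc38a2 and Slc1a5 were higher in CE+BZA by 1.12 and 1.55. Slc6a4, the serotonin transporter, was lower in CE+BZA at 0.04, −0.93 and −0.47 than in Veh at 0.99, 0.75 and 0.70. Its log2 fold change was −1.26 (SE 0.49, FDR 0.211 by limma), and −1.03 and not nominal without CE+BZA mouse 2, as without Veh mouse 1 (−1.18). Slc1a4, Slc43a1, Slc7a4, Slc6a19, Slc6a7 and Slc36a2 had no nominal difference from Veh.

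Of the 7 mitochondrial carriers, 3 were nominally higher in CE+BZA, 2 in BZA and 1 in CE (11.6, 8.92 and 10.1% of all genes), and none was lower. None was nominal under any treatment without Veh mouse 7. The class median was 0.40 with E2, 0.27 with CE, 0.90 with BZA and 1.11 with CE+BZA. Slc25a29, a carrier of basic amino acids, had 0.51, 0.91 and 0.57 with BZA and 0.08, 0.82 and 1.14 with CE+BZA. The E2 mice had −1.18, −1.08 and −0.65 and the CE mice −1.13, −1.52 and 0.00, so all 6 mice given BZA lay above all 6 mice given E2 or CE alone. The Veh mice, at −0.48, 0.17 and −1.54, lay among both. CE+BZA was higher than CE by 1.56 and than E2 by 1.65 (SE 0.54 each, FDR 0.230 and 0.193 by limma). The difference from E2 remained nominal without each mouse in turn, and that from CE was 1.24 and not nominal without CE mouse 6. Against Veh the log2 fold changes were 1.28 in BZA and 1.29 in CE+BZA, or 0.81 and 0.83 and not nominal without Veh mouse 7.

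The glutamate carrier Slc25a22 was nominally higher in BZA by 1.03 and in CE+BZA by 1.11, or by 0.66 and 0.75 without Veh mouse 7. Slc25a33, a pyrimidine nucleotide carrier, was nominally higher in CE by 1.001, or by 0.72 without Veh mouse 7. Slc25a25, an exchanger of ATP-magnesium for phosphate, had no nominal difference from Veh and was higher in CE+BZA than in CE by 1.28. In Slc25a2, an ornithine carrier, all 3 BZA mice and 2 CE+BZA mice were at the floor of −0.92, with no nominal difference from Veh. Slc25a43, with 6 mice at the floor, had none either.

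The 10 carriers of inorganic ions had 2 nominally higher in CE and 1 lower in CE+BZA (10.1 and 9.55% of all genes). Their class median lay between 0.13 with E2 and 0.67 with BZA. Slc26a4, an exchanger of chloride, iodide and bicarbonate, was lower in CE+BZA. The CE+BZA mice had −1.51, −0.65 and −1.54, below Veh at 1.51, 0.00 and 0.96 and below BZA at −0.30, 2.13 and 1.72. The log2 fold change was −2.05 against Veh and −2.42 against BZA (SE 0.74 each, FDR 0.205 and 0.514 by limma). The value against BZA remained nominal without each mouse in turn, and that against Veh was −1.71 and not nominal without Veh mouse 1. Slc24a6, the sodium-calcium exchanger of mitochondria, was higher in CE than in Veh by 1.34 and lower in CE+BZA than in CE by −1.31 (SE 0.50 each, FDR 0.225 and 0.264 by limma). The first value was 1.02 and not nominal without Veh mouse 7. The second value was −1.15 without CE mouse 7 and −1.17 without CE+BZA mouse 1, neither nominal.

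Slc4a1, the chloride-bicarbonate exchanger of red cells, had 3.36, 1.80 and 0.15 in CE, and 0.45, −2.54 and −2.54 in Veh, where −2.54 is the floor. Its log2 difference was 3.31 in CE (SE 1.04, FDR 0.194 by limma) although the mice overlapped. CE+BZA, with 1 mouse at the floor, was lower than CE by −2.65, or by −1.86 without CE mouse 3 and −1.83 without CE+BZA mouse 1, neither nominal. The additivity contrast was −4.77 (SE 1.48, FDR 0.256 by limma). The mean of the 7 erythroid markers in the table, of 15 listed, was 1.48 in CE mouse 3, 1.22 in CE mouse 6 and 1.37 in BZA mouse 3, the mice with the highest Slc4a1 values (3.36, 1.80 and 2.62). It ranged from −0.99 to 0.11 in Veh, −0.59 to 0.46 in E2, −0.09 to 1.48 in CE, 0.06 to 1.37 in BZA and −0.95 to −0.34 in CE+BZA. The part of red cell RNA in the Slc4a1 values was not tested. Slc4a3, a chloride-bicarbonate exchanger of excitable tissue, had an additivity contrast of 2.58 (SE 1.01, FDR 0.339 by limma), which was 2.07 to 2.30 and not nominal without BZA mouse 3, BZA mouse 4 or CE+BZA mouse 3. Slc24a3, Slc4a9, Slc8a3 and Slc9a7 had no nominal difference from Veh, except that Slc9a7 was nominally higher in CE, by 1.77, without Veh mouse 7.

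3 carriers were high in a single mouse. Slc26a3, the chloride-bicarbonate exchanger of gut epithelium, was at 4.81 in BZA mouse 1 and at most 0.19 in the other mice, of which 11 were at the floor. Slc9a4, a sodium-proton exchanger of stomach and kidney, was at 3.79 in BZA mouse 1 and at most 0.10 elsewhere. In that mouse the highest value in the table was of Dmbt1, at 11.7, a mucosal glycoprotein gene, followed by Gpr128 (6.41) and Muc3 (5.76), a mucin gene. The mean of the 4 cholangiocyte markers in the table, of 9 listed (Krt7, Krt19, Tff2 and Muc1), was 2.76 there, against −1.61 to 0.64 in the other mice. The 2 stellate and fibroblast markers in the table, of 8 listed, also had their highest mean there, 1.47, but this came from Acta2 alone (2.91). Acta2 was at 2.25 in CE+BZA mouse 3 as well. Lrat, the other marker, was at 0.03 in BZA mouse 1 and highest in Veh mouse 7 (0.92). Of 5 gut markers 1 was in the table, Fabp2, at −0.51 in BZA mouse 1. Slc36a2, a proton-coupled amino acid carrier, was at 4.98 in BZA mouse 3, 0.75 in E2 mouse 5 and at the floor in the other 13 mice. In BZA mouse 3 the mean of 9 adipocyte markers was 3.44, against −0.56 to 0.67 elsewhere, and that of 7 pancreas markers was 6.15, against −0.16 to 0.66. Lep, Ucp1, Cpa1 and Cela3b were at the floor in all 14 other mice. Plin1 (5.11), Retn (5.32) and Adipoq (5.52) were also highest in BZA mouse 3, but the remaining adipocyte markers were not. Plin4 was at 0 there, against 0.83, 0.81 and 0.54 in the Veh mice. Car3 (0.78) and Cfd (4.59) were higher in Veh mouse 1, at 1.18 and 4.89. Adrb3 (0.998) was higher in CE+BZA mouse 3, at 1.65. The part of RNA from other tissue in these 3 carriers was not tested. Their mean log2 differences from Veh in BZA, 1.60, 1.26 and 1.66, were not nominal and each rested on 1 mouse.

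**Figure D5:**
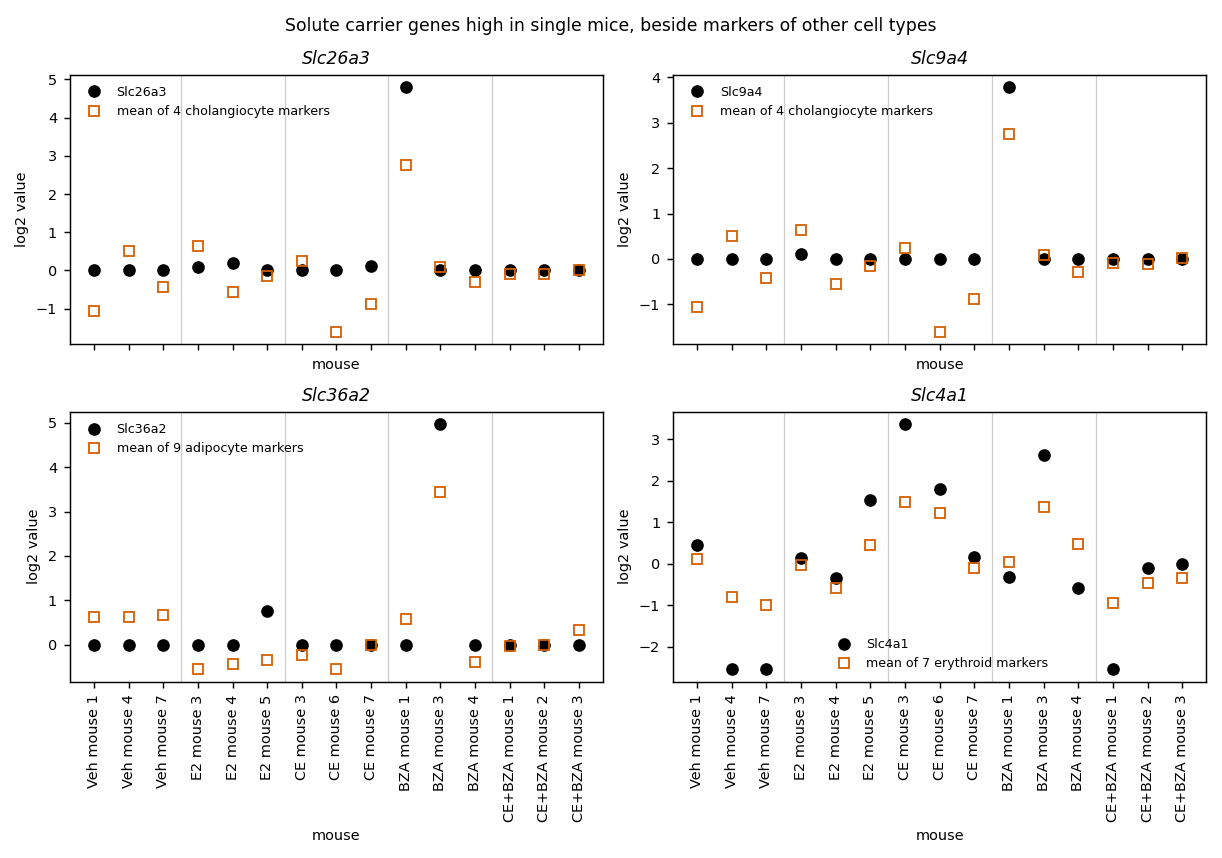
Log2 values of Slc26a3, Slc9a4, Slc36a2 and Slc4a1 (filled circles) in each of the 15 mice, beside the mean log2 value of markers of another cell type in the same mouse (open squares). Slc26a3 (4.81), Slc9a4 (3.79) and the cholangiocyte markers (2.76) peak in BZA mouse 1, and Slc36a2 (4.98) and the adipocyte markers (3.44) in BZA mouse 3.

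CE+BZA was also compared with CE, BZA and E2. Against CE there were nominal differences in 8 of 60 SLC genes (4 higher and 4 lower), beside 14.4% of all genes (7.11 and 7.31%). Against BZA there were 4 (1 higher and 3 lower), beside 8.76% (4.32 and 4.44%), and the 1 higher gene was Slc4a3, by 1.70. Against E2 there were 2, both higher, Slc25a29 and the magnesium carrier Slc41a3 (by 1.57), beside 13.2% (7.7 and 5.46%). The additivity contrast was nominal in 9 SLC genes, 4 of them above 0 and 5 below, beside 12.3% of all genes (6.05 and 6.21%), and the test of any difference among the 5 groups in 10, beside 16.5%.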

How the data were processed

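Liver RNA-seq values of 15 mice, 3 per group, were taken as the authors deposited them. The values the authors deposited are log2, normalized by them with the DESeq algorithm and set against each gene's median. Per the labels and the paper, reads were base-called with CASAVA 1.8.2, trimmed with FASTQ Trimmer 1.0.0, mapped with TopHat (given as 0.5) and quantified in StrandNGS 3.1. The builds mm10 and hg19 are listed with no role. The labels state 2 samples per group and 101 cycles from each end, where the paper states 3 and single-end reads. Each column was matched by name, with 0 columns unmatched. How the 2545 genes were selected is not given in the sources used here. Depth in reads is not in the table, and 52.5 to 73.9% of low values were whole reads to within 0.02, so counts were not recovered.

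A linear model of 5 groups was fitted to all genes and mice with limma 3.58.1 in R 4.3.3, with no filter and no pseudocount. Every treatment was set against Veh and CE+BZA against every other treatment, with tests of additivity and of any difference. FDR values are Benjamini-Hochberg over all genes. The fit was tested on simulated data. Other work used Python 3.11.15, numpy 2.4.6, pandas 2.3.3 and matplotlib 3.10.9. The 60 genes, their classes and the marker lists were chosen with earlier results of these data known. Genes were named by a rule: per treatment up to 4 per direction with the smallest p among nominal genes whose mice did not overlap with Veh, up to 3 for CE+BZA against CE or BZA, genes with all 12 treated mice beyond Veh, all bile acid and organic ion carriers, the smallest p of any difference per class, nominal genes of the pathway lists and the 3 smallest p for additivity. Other members were named after their values were seen, and 1 carrier is counted but not reported here by itself. Marker lists were of hepatocytes, adipocytes, red cells, leukocytes, cholangiocytes, stellate cells and fibroblasts, pancreas, kidney (0 of 4 in the table) and gut. Gene positions (59 of 60, all but Slc24a6) came from the GENCODE annotation of GRCm38, and start regions (46 of 60) from RefSeq. There were 24 alternatives, of which leaving out BZA mice 1 and 3 together was chosen after seeing the data.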

Additional observations from a re-analysis of the deposited data

Results flagged for a closer look

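For 3 carriers every mouse of one treatment lay above the Veh mean and every mouse of another lay below it. For Slc34a2 the log2 fold change from Veh was 1.23 (E2), −1.86 (CE), 2.44 (BZA) and 2.35 (CE+BZA). For Slc13a2 it was −0.90 in CE and 1.54 in CE+BZA, and for Slc25a29 −0.35 in E2, 1.28 in BZA and 1.29 in CE+BZA. The differences of CE+BZA from CE and E2 were tested by limma and are given with each gene, and those of BZA from E2 or CE were not tested. The comparisons share the 3 Veh mice.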

How the results depend on the processing

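No nominal value of a named carrier changed sign under any alternative. Of 46 nominal values of named carriers, 4 were not nominal with quantile normalization, 7 without variance shrinkage and 10 with only the groups compared, and 31 were not nominal without at least 1 mouse, most often Veh mouse 7 (15). FDR calls stayed at 0 when any mouse was left out. Slc34a2 was the 1 carrier with an FDR under 0.05, for CE+BZA against CE with quantile normalization (1) or without the genes at the floor (1), and for any difference with these (1 each) or a mean-variance trend (1).

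Counts of nominal carriers without each mouse in turn were 4 to 9 in E2, 5 to 15 in CE, 6 to 18 in BZA and 10 to 23 in CE+BZA against Veh. Of all genes, 10.9 to 16.7, 14.2 to 20.1, 11.2 to 19.3 and 13.8 to 23.7% were nominal in the same settings. The counts for CE+BZA were 4 to 10 against CE, 3 to 7 against BZA and 2 to 4 against E2. Beside them stood 11.8 to 15.2, 6.80 to 10.9 and 10.1 to 13.9% of all genes. Counts were 4 to 11 for additivity and 8 to 17 for any difference, for which the shares of all genes are not given. In the main fit with all mice these shares were 12.3 and 16.5%, so the 2 ranges cannot be read as particular to the carriers. Carriers with all 12 treated mice above Veh numbered 2 to 6 (6 without Veh mouse 4), and below Veh 2 to 3. The shares of all genes were 1.30 to 4.01% above (4.01% without Veh mouse 4) and 2.40 to 5.27% below. These ranges include BZA mice 1 and 3 left out together, which gave 7 against BZA, 4 against E2 and 17 for any difference. Without the genes in the lowest 25% by mean value there were 8 in BZA, 5 for CE+BZA against CE and 1 against E2. These were of the 45 carriers kept, beside 17.4, 14.2 and 13.5% of the genes kept. With only the groups compared there were 8 in BZA and 5 for CE+BZA against E2, beside 13.3 and 13.4% of all genes. With quantile normalization 1 carrier had all treated mice below Veh, beside 1.69% of all genes.

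Replicate numbers recur between groups but belong to different mice, and same-numbered mice had correlations of −0.05 to 0.10 in 13 pairs, so the numbers were not used as a pairing. As a replicate block they gave 2 nominal carriers in E2, 4 in BZA and 5 in CE+BZA against Veh, and 4 for CE+BZA against CE. Of all genes, 8.53, 7.90, 8.64 and 8.68% were nominal with this block. The block gave 5 nominal carriers for any difference, for which the share of all genes is not given, and 25 of the 46 values were not nominal. The cause of these changes was not tested beyond the smaller number of mice or genes in each setting. With 3 mice per group and values at a floor, small differences could not be detected.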

Other observations

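Other membrane transport genes in the table, 45 genes of channels, pumps and other transporters chosen by name, had 4 nominally higher and 3 lower with E2 than with Veh (6.52 and 8.61% of all genes), 7 and 2 with CE (10.1 and 8.45%), 6 and 2 with BZA (8.92 and 7.47%), and 7 and 4 with CE+BZA (11.6 and 9.55%), by unadjusted p with limma. 3 of them are given with their values, and the others included the potassium channel subunit gene Kcnab2, by 1.56 in E2, 1.72 in CE and 1.49 in BZA, and the sodium channel gene Scn3a, by −2.17 in E2 and −1.64 in BZA. Aqp4, a water channel, had 1.69, 1.42 and 2.22 in Veh and at most 0.16 in the treated mice. Log2 fold changes from Veh were −2.04 (E2), −2.45 (CE), −2.04 (BZA) and −2.03 (CE+BZA), with an SE of 0.53 and the smallest FDR, 0.0779 by limma, in CE. Clic3, an intracellular chloride channel protein, had −2.22, −1.85 and −1.72 in Veh. Its differences from Veh on the log2 scale were 2.13 (E2), 0.87 (CE), 2.24 (BZA) and 2.91 (CE+BZA), with an SE of 0.58 and an FDR of 0.0561 by limma for CE+BZA. Kcnk3, a potassium leak channel, had −1.43, −1.25 and −2.42 in Veh and log2 fold changes of 1.84, 1.73, 1.95 and 1.86 in E2, CE, BZA and CE+BZA (SE 0.60 each).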
